A study of Mus musculus with 11 samples.

Results

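Elastic fibre proteins, adhesive and matricellular glycoproteins, proteoglycans, laminins, nidogens and the enzymes that finish collagen were followed as a set of 45 genes in mouse liver. They were chosen by gene name as structural matrix genes other than collagens, and all 45 were found among the 31280 genes of the table. The livers came from wild-type C57BL/6 mice, and every animal ate a methionine- and choline-deficient (MCD) diet for 8 weeks. In the limonin group, limonin, a triterpenoid lactone of citrus fruit, was given intragastrically at 100 mg/kg for 4 weeks (6 libraries). In the MCD group water was given by the same route (5 libraries). No liver from a mouse on a complete diet is compared here, so a level in limonin livers cannot be set against a healthy one. The diet deprives the liver of the precursors for exporting fat and is used as a model of steatohepatitis with fibrosis, although the animals lose weight on it.

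Elastic fibres form when elastin is laid on a scaffold of fibrillin microfibrils, with fibulins guiding the assembly and lysyl oxidases cross-linking the product. Small leucine-rich proteoglycans coat collagen fibrils and set their width and spacing, whereas laminins, nidogens and perlecan build basement membranes beneath epithelium and around vessels and bile ducts. In injured liver, activated stellate cells and portal fibroblasts secrete much of this matrix, and hepatocytes secrete the plasma form of fibronectin.

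Values were FPKM (fragments mapped to a gene, divided by its length and by the depth of the library) deposited by the authors. Low FPKM values implied a depth of 15518347 to 19727686 fragments per library, and 9742 to 11087 genes reached 1 FPKM. Groups were compared with limma on log2(FPKM + 1) over the 10489 genes that reached 1 FPKM in 5 or more libraries, and a gene was called at a Benjamini-Hochberg adjusted p under 0.05. All fold changes below are differences of mean log2(FPKM + 1), limonin minus MCD, given with their SE. The hepatocyte markers were at the levels of liver tissue: the 12 listed summed to 33684 to 50939 FPKM in limonin libraries and 31659 to 39415 FPKM in MCD libraries.

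Most of the measured matrix genes were lower in limonin livers. Of the 45 genes, 26 passed the filter on low values, and 20 of these were called lower, 1 was called higher and 5 were not called. Among all genes tested, 18.7% were called lower and 7.24% higher. The 20 included elastin, the collagen chaperone Serpinh1, Sparc, biglycan, perlecan and laminin chains, and the gene called higher was fibronectin, Fn1. The median fold change of the 26 was -0.79 on the log2 scale, against -0.07 over all genes tested, of which 58.9% had a negative value. Among the genes called lower, the MCD mean was 1.44 to 6.67 times the limonin mean. Leaving out each library in turn left 16 to 20 called lower and always 1 called higher, and 16 of the 20 were called in each of the 11 fits. The other 4 were Efemp1, Lum, Dcn and Lamc1. Summed stellate cell markers were also lower, at 37.9 to 49.4 FPKM in limonin libraries and 60.4 to 96.0 FPKM in MCD libraries, and their part in these changes was not tested. In bulk liver, fewer cells of a type and less RNA per cell cannot be told apart.

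**Figure D1:**
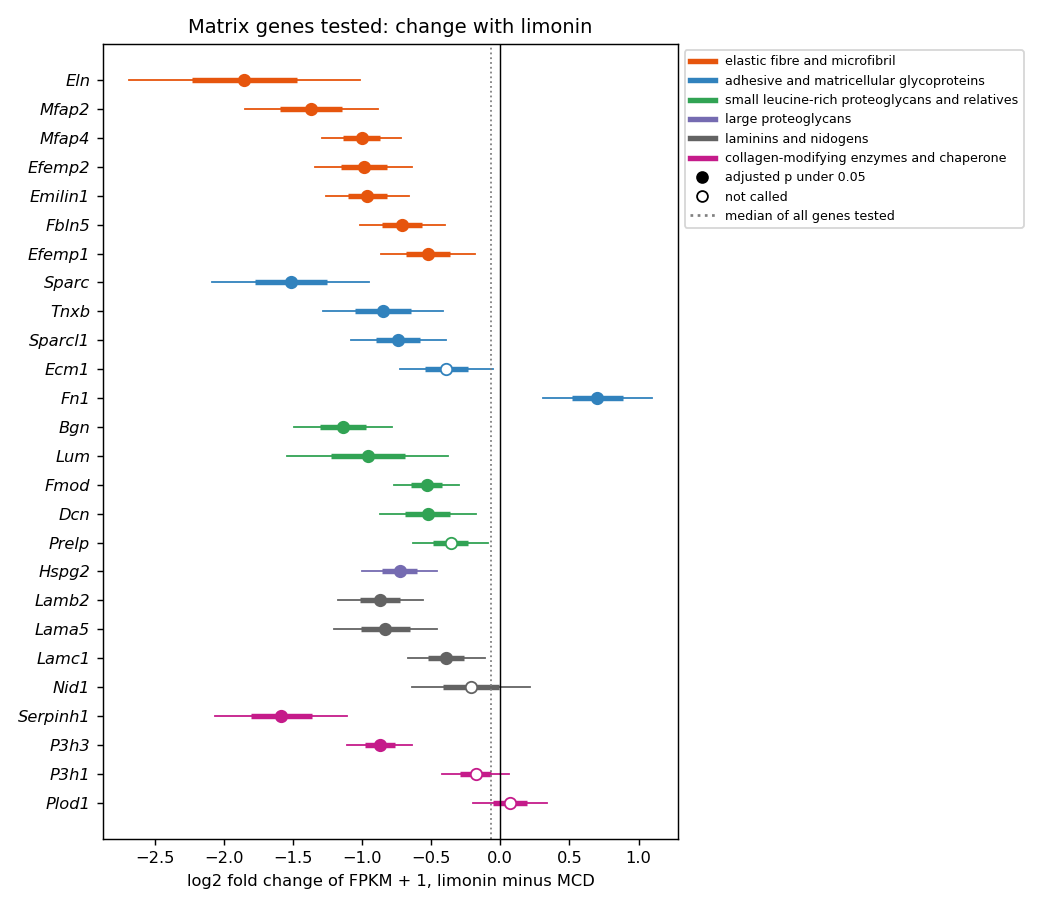
Log2 fold change of FPKM + 1, limonin minus MCD, for the 26 matrix genes tested, coloured and ordered by role. Thick bars are the SE, thin bars the 95% confidence interval, filled points have an adjusted p under 0.05 in limma, and the dotted line is the median of all genes tested (-0.07): 20 filled points lie left of 0 and Fn1 lies right of it.

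The filter bears on these counts. A gene with low values in limonin livers could pass through the 5 MCD libraries alone, and Eln, Mfap2, Mfap4 and Lama5 reached 1 FPKM in fewer than 5 limonin libraries. With no filter, 21 of the 45 genes were called lower and none higher, against 5.68% lower and 1.32% higher of all 31280 genes. Of these 21, 16 had also been tested under the filter and 5 had not: Fbln2, Thbs1, Tnc, Lama4 and Ecm2. The median fold change of the 45 was then -0.50, against -0.01 over all genes. In the authors' deposited table, 27 of the 45 had a q under 0.05 and were lower and 1 was higher, against 7.44% and 8.57% of all genes, and 2 genes called lower by limma, Dcn and Lamc1, did not reach that threshold. In 17 of the 45 genes every limonin library was below every MCD library, against 4.76% of all genes. This held for 13 of the 26 tested genes, against 8.33% of all genes tested. In 1 gene, Fn1, every limonin library was above every MCD library, against 1.40% of all genes and 2.97% of genes tested. Overlap was read on FPKM as deposited, without rescaling. Summed FPKM over all genes was 404050 to 462665 in limonin libraries and 464184 to 471623 in MCD libraries, which favours lower values in limonin livers.

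The promoters of 4 of the genes that fell are given as context for the changes that follow. They are the genes called lower with the largest fold changes that have an entry in the RefSeq table of promoters, each window running from 250 bases before to 50 bases after an annotated start (build GRCm38.p6, read 5′ to 3′ on the gene's strand). Capitals mark matches, on either strand, to a GC box, a CCAAT box or a TEAD site.
Serpinh1 (chr7:99353190-99353489, minus strand): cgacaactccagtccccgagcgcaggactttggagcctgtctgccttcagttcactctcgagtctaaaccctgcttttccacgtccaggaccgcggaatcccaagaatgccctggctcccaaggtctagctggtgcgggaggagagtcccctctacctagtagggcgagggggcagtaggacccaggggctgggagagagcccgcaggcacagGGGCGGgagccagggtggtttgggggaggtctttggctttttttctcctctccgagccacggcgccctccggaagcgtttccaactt
Sparc (chr11:55420031-55420330, minus strand): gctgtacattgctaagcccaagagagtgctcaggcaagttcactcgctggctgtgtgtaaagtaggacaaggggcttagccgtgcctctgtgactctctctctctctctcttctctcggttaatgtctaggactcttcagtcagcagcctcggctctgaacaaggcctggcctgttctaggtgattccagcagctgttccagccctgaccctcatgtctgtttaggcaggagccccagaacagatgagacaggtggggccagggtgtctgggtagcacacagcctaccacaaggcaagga
Mfap2, start 1 (chr4:141010431-141010730, plus strand): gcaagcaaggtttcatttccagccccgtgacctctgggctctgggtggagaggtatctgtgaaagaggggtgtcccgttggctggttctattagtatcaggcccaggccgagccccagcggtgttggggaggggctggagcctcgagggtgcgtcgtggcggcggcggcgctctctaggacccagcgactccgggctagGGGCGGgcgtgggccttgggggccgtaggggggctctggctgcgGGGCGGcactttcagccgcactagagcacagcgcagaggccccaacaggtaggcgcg
Mfap2, start 2 (chr4:141010174-141010473, plus strand): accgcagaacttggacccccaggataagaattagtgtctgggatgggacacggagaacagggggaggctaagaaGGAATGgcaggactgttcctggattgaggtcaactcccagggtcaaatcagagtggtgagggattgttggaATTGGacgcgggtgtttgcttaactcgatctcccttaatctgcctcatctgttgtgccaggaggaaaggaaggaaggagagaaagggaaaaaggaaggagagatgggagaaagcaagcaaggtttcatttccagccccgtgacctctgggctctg
Bgn (chrX:73483351-73483650, plus strand): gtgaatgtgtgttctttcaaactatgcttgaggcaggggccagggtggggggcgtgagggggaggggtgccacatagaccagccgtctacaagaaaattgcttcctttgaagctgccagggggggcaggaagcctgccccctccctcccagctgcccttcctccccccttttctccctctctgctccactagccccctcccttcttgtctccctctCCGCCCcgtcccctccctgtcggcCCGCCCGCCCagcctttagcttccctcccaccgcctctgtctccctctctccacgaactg
The Serpinh1 window held 1 GC box, the Bgn window 3, of which 2 overlap, and the first Mfap2 window 2. The second Mfap2 window overlaps the first and held 1 CCAAT box and 1 TEAD site. None of the 7 motifs searched was found in the Sparc window. That window lies inside the gene's span (chr11:55394500-55423183, minus strand), downstream of the 5′ end of the span.

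Of the 45 genes, 32 had a promoter entry, and 21 of these (65.6%) held a GC box (GGGCGG), against 38.2% of 27025 genes in the table. A TATA box (TATAAA) was found in 7 of 32 (21.9%), against 15.7% of all genes. An AP-1 site (TGANTCA) was in 3 of 32 (9.38%), against 8.97% of all genes. A heat shock element (GAANNTTC) was in 2 of 32 (6.25%), against 9.04%, and the SMAD palindrome GTCTAGAC was in none, against 0.248%. A CCAAT box, spelled CCAAT, was in 13 of 32 (40.6%), against 41.1%, and a TEAD site, spelled GGAATG, in 5 of 32 (15.6%), against 16.6%. Both strands were searched, and overlapping matches were counted. Among the 14 matched genes that were called lower, 8 held a GC box, 4 a CCAAT box, 2 an AP-1 site, 2 a TEAD site and 0 a TATA box, a heat shock element or the SMAD palindrome. These are matches of letters in the windows and were not tested.

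The genes of elastic fibres and microfibrils were lower as far as they were measured: 7 of the 12 passed the filter. All 7 of those were called lower, against 18.7% of all genes tested, with a median fold change of -0.99. Eln, Mfap2 and Mfap4 reached 1 FPKM in fewer than 5 limonin libraries and passed through the MCD libraries, which favours a lower call. With no filter, 7 of the 12 were called lower, against 5.68% of all genes, and the median of the 12 was -0.62. Summed over the 12, they gave 14.2 to 20.2 FPKM in limonin libraries and 24.9 to 56.1 FPKM in MCD libraries, with no overlap. Elastin, Eln (ENSMUSG00000029675, chr5:134702593-134747323), the extensible core of the fibre, had 1.20, 0.897, 2.59, 0.684, 0.670 and 0.847 FPKM in limonin libraries 1 to 6, against 12.8, 11.7, 4.02, 1.996 and 7.76 FPKM in MCD libraries 1 to 5. Limonin 3 was above MCD 4, so the groups overlapped by these libraries, and MCD libraries differed widely among themselves. Eln had a fold change of -1.85 ± 0.38 (adjusted p = 0.00690, limma), the largest in size among the 26 genes. The group means were 1.15 ± 0.730 FPKM in limonin livers and 7.65 ± 4.69 FPKM in MCD livers (SD, n = 6 and 5).

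The microfibril-associated proteins Mfap2 and Mfap4 bind fibrillin and tropoelastin. Mfap2 (ENSMUSG00000060572, chr4:141010418-141015984) had 0.355, 0.646 and 1.13 FPKM (lowest, median and highest of 6) in limonin libraries, against 5.31, 5.61, 2.15, 1.62 and 3.01 FPKM in MCD libraries. Every limonin library was below every MCD library. The fold change of Mfap2 was -1.37 ± 0.22 (adjusted p = 0.00218, limma). Mfap4 (ENSMUSG00000042436, chr11:61485431-61488900) had 0.791, 1.003 and 1.45 FPKM by the same measures in limonin libraries, against 2.90, 4.47, 3.16, 2.24 and 3.05 FPKM in MCD libraries. Its groups did not overlap either, and its fold change was -1.003 ± 0.13 (adjusted p = 0.00120).

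Efemp2 (fibulin-4), which brings lysyl oxidase to tropoelastin, had 1.04, 1.41 and 1.59 FPKM in limonin libraries (ENSMUSG00000024909, chr19:5473954-5482517) and 4.88, 4.95, 3.15, 1.96 and 4.45 FPKM in MCD libraries. Emilin1, a glycoprotein at the interface of elastin and microfibril, had 4.40, 5.10 and 6.48 FPKM in limonin libraries (ENSMUSG00000029163, chr5:30913402-30921277) and 12.9, 12.8, 9.13, 7.90 and 13.1 FPKM in MCD libraries. Neither gene's groups overlapped. Their fold changes were -0.99 ± 0.16 for Efemp2 (adjusted p = 0.00212, limma) and -0.96 ± 0.14 for Emilin1 (adjusted p = 0.00135). Fbln5 (fibulin-5), a further assembly protein of elastic fibres, averaged 1.81 ± 0.338 FPKM in limonin livers and 3.67 ± 1.11 FPKM in MCD livers and fell by 0.71 ± 0.14 (adjusted p = 0.00480), with no overlap. Efemp1 (fibulin-3) averaged 3.94 ± 0.989 FPKM in limonin livers and 6.14 ± 1.49 FPKM in MCD livers, with overlap. Its call (fold change -0.53 ± 0.16, adjusted p = 0.0275) was lost without limonin 2, MCD 1 or MCD 2, with adjusted p up to 0.0835.

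The other 5 elastic fibre genes were below the filter and were not tested. The fibrillin Fbn1, the main chain of microfibrils, averaged 0.382 FPKM in limonin livers and 0.994 FPKM in MCD livers, with overlapping libraries. Fbln2 (fibulin-2) averaged 0.482 ± 0.0925 FPKM in limonin livers and 1.13 ± 0.210 FPKM in MCD livers, and its groups did not overlap. Fbln1, another fibulin, averaged 0.488 FPKM in limonin livers and 0.845 FPKM in MCD livers, Fbn2 0.0126 FPKM in limonin livers and 0.0914 FPKM in MCD livers and Mfap5 0.0356 FPKM in limonin livers and 0.0351 FPKM in MCD livers. Fbn2 and Mfap5 were each listed at 0 in at least 1 library, and levels this low say little about direction.

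**Figure D2:**
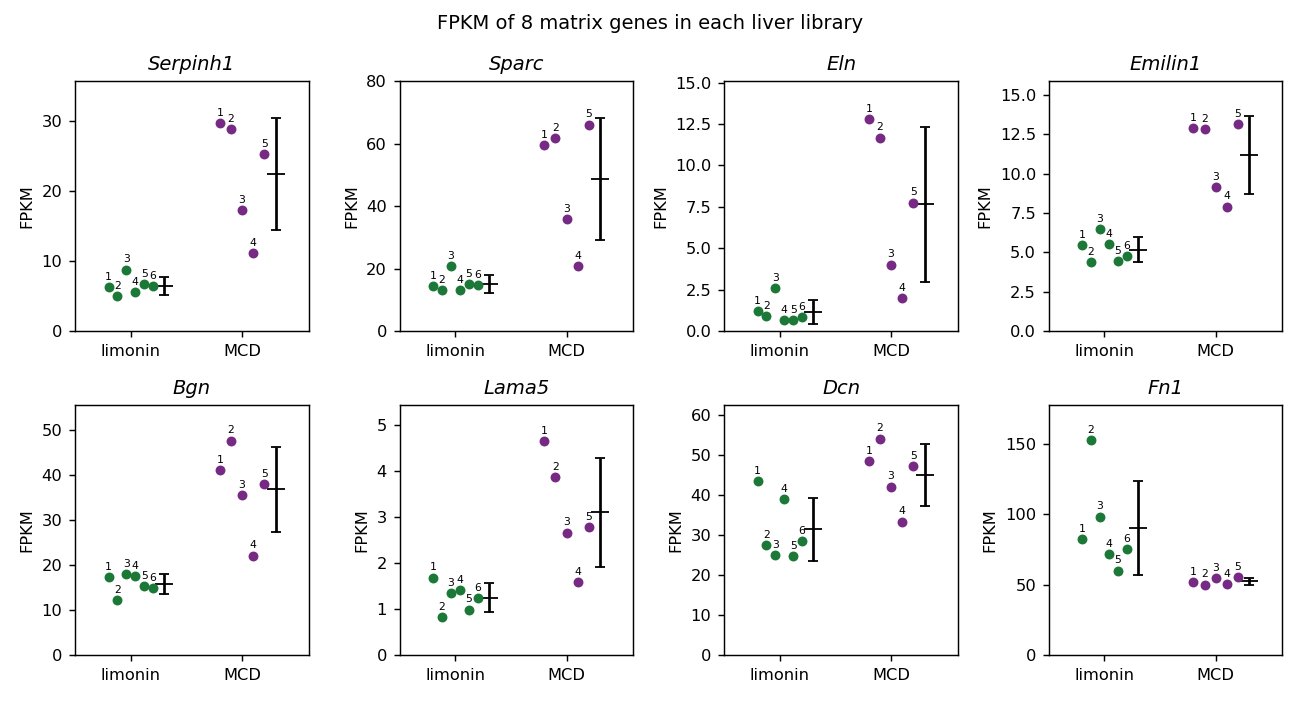
FPKM of Serpinh1, Sparc, Eln, Emilin1, Bgn, Lama5, Dcn and Fn1 in each of the 6 limonin and 5 MCD libraries (points, numbered by replicate), with the mean and SD beside them. MCD 4 is the lowest MCD library in the genes shown other than Fn1, whose limonin libraries lie between 60.1 and 153 FPKM, all above the MCD libraries.

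Among 10 adhesive and matricellular glycoproteins, 5 were tested: 3 were called lower, 1 higher and 1 was not called. Sparc (ENSMUSG00000018593, chr11:55394500-55423183), a secreted protein that binds collagen and modulates its deposition, had 13.2, 14.6 and 20.9 FPKM (lowest, median and highest of 6) in limonin libraries, against 59.6, 61.7, 35.8, 20.9 and 66.1 FPKM in MCD libraries. On FPKM as deposited the groups did not overlap, though limonin 3 (20.93 FPKM) nearly met MCD 4 (20.94 FPKM). Summed FPKM over all genes was 412782 in limonin 3 and 464485 in MCD 4, so with equal sums limonin 3 would lie above MCD 4. Sparc fell by 1.52 ± 0.26 on the log2 scale (adjusted p = 0.00310, limma). Sparcl1, its relative, had 2.76, 4.62 and 6.85 FPKM in limonin libraries (ENSMUSG00000029309, chr5:104079111-104113733) and 9.52, 9.17, 9.52, 6.51 and 7.16 FPKM in MCD libraries. Limonin 4 was above MCD 4 and the groups overlapped, with a fold change of -0.74 ± 0.16 (adjusted p = 0.00629). Tnxb (tenascin-X), a large glycoprotein that binds fibrillar collagen, had 1.57, 2.38 and 2.95 FPKM in limonin libraries (ENSMUSG00000033327, chr17:34670535-34719815) and 3.25, 8.63, 6.27, 3.49 and 4.19 FPKM in MCD libraries. Its libraries separated, and it fell by 0.85 ± 0.20 (adjusted p = 0.00998).

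Fn1 (ENSMUSG00000026193, chr1:71585520-71653200), fibronectin, the adhesive glycoprotein of plasma and of provisional matrix, was the only gene of the set called higher. It had 82.5, 153, 98.4, 71.8, 60.1 and 75.1 FPKM in limonin libraries 1 to 6, against 52.0, 50.0, 54.6, 50.3 and 55.5 FPKM in MCD libraries 1 to 5. Every limonin library was above every MCD library, and the spread was far wider in limonin livers: the means were 90.2 ± 33.4 FPKM in limonin livers and 52.5 ± 2.48 FPKM in MCD livers (SD). The fold change was 0.70 ± 0.18 (adjusted p = 0.0156, limma). The call held in each of the 11 fits that left out a library (adjusted p up to 0.0433) and was lost with no filter (adjusted p = 0.0564) and without MCD 4 and 5 (adjusted p = 0.0510). Fn1 made up 23.5% to 45.5% of the summed FPKM of the 45 genes in limonin libraries and 10.1% to 16.8% in MCD libraries. Of all genes tested, 7.24% were called higher and 18.7% lower. Of 12 hepatocyte markers in the same livers, 4 were called higher, 0 lower and 8 not called. Among those for plasma proteins, Fgb and Alb were called higher, with fold changes of 0.96 and 0.54, and Apoa1, Ttr and Serpina1a were not called, at -0.65, -0.12 and 0.07. Their part in the Fn1 difference was not tested.

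The summed level of the adhesive group overlapped, at 144 to 221 FPKM in limonin libraries and 147 to 218 FPKM in MCD libraries. Ecm1 (ENSMUSG00000028108, chr3:95734147-95739569), a secreted protein that holds latent TGF-beta inactive in mouse liver, had 43.9, 47.2 and 65.5 FPKM (lowest, median and highest of 6) in limonin libraries, against 46.9, 83.8, 81.9, 63.0 and 68.7 FPKM in MCD libraries. Its groups overlapped and it was not called, at -0.39 ± 0.16 with a 95% confidence interval of -0.73 to -0.05 (adjusted p = 0.0810). It was called lower when limonin 5 (adjusted p = 0.0438) or MCD 1 (adjusted p = 0.0266) was left out.

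The other 5 genes of this group were below the filter. The thrombospondins, which bind growth factors and cell receptors, were among them: Thbs1 averaged 0.364 ± 0.140 FPKM in limonin livers and 0.995 ± 0.284 FPKM in MCD livers, and its libraries did not overlap. Thbs2 averaged 0.536 FPKM in limonin livers and 0.873 FPKM in MCD livers, and Thbs3 0.344 FPKM in limonin livers and 0.531 FPKM in MCD livers, both with overlap. Tnc (tenascin-C), a glycoprotein of wounds and remodelling tissue, averaged 0.238 ± 0.109 FPKM in limonin livers and 0.832 ± 0.373 FPKM in MCD livers. Postn (periostin), which links collagen to other matrix proteins, averaged 0.450 FPKM in limonin livers and 0.986 FPKM in MCD livers. With no filter, Thbs1 and Tnc were called lower among these 5 (adjusted p = 0.0222 and 0.0342, limma).

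Of the 8 small leucine-rich proteoglycans and relatives, 5 were tested and 4 were called lower, with a median fold change of -0.53. Of the 5, 2 were called when MCD 2 was left out. Biglycan, Bgn (ENSMUSG00000031375, chrX:73483602-73495933), had 12.2, 16.3 and 18.1 FPKM (lowest, median and highest of 6) in limonin libraries, against 41.1, 47.7, 35.5, 22.1 and 38.0 FPKM in MCD libraries. Every limonin library was below every MCD library, and Bgn fell by 1.14 ± 0.16 (adjusted p = 0.00136, limma). Decorin, Dcn (ENSMUSG00000019929, chr10:97479609-97518143), its nearest relative, had the higher mean FPKM of the pair in both groups. It had 43.5, 27.5, 24.9, 39.0, 24.7 and 28.5 FPKM in limonin libraries 1 to 6, against 48.5, 54.1, 42.0, 33.3 and 47.1 FPKM in MCD libraries 1 to 5. Limonin 1 and 4 lay within the MCD range. The fold change of Dcn was -0.52 ± 0.16 (adjusted p = 0.0309), and the call was lost when limonin 2, 3, 5 or 6 or MCD 1, 2 or 5 was left out, with adjusted p up to 0.0910.

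Lumican, Lum (ENSMUSG00000036446, chr10:97565128-97572703), a keratan sulfate proteoglycan of collagen fibrils, had 2.71, 4.34 and 7.60 FPKM in limonin libraries and 13.5, 13.0, 7.90, 5.06 and 10.3 FPKM in MCD libraries. Its groups overlapped. It was called at -0.96 ± 0.27 (adjusted p = 0.0229, limma), a call lost without MCD 1 or MCD 2 (adjusted p up to 0.0671). Fibromodulin, Fmod, which guides collagen cross-linking, averaged 1.44 ± 0.264 FPKM in limonin livers and 2.54 ± 0.442 FPKM in MCD livers without overlap and fell by 0.53 ± 0.11 (adjusted p = 0.00525). Prelp, which anchors basement membranes to connective tissue, averaged 14.3 ± 1.46 FPKM in limonin livers and 18.8 ± 3.79 FPKM in MCD livers, with overlap. It was not called, at -0.36 ± 0.13 (95% confidence interval -0.63 to -0.09, adjusted p = 0.0509), and was called lower when limonin 3 (adjusted p = 0.0474) or MCD 1 (adjusted p = 0.0155) was left out. Below the filter were Ogn at 0.316 FPKM in limonin livers and 0.351 FPKM in MCD livers, Aspn at 0.0408 FPKM in limonin livers and 0.0759 FPKM in MCD livers and Ecm2 at 0.0925 FPKM in limonin livers and 0.198 FPKM in MCD livers, of which Ecm2 had no overlap between the groups.

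Several of these genes lie side by side in the genome (GRCm38, GENCODE M21). Lum is 47.0 kb from Dcn on chromosome 10 with 0 annotated genes between them, and Fmod is 115.8 kb from Prelp on chromosome 1 with 0 protein-coding genes between them. Aspn lies 11.7 kb from Ecm2 and 40.5 kb from Ogn on chromosome 13, with Omd between Aspn and Ogn. The fold changes of neighbours are given above and were not compared by position.

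Perlecan, Hspg2 (ENSMUSG00000028763, chr4:137468769-137570630), the large heparan sulfate proteoglycan of basement membranes, had 1.26, 1.64 and 2.10 FPKM (lowest, median and highest of 6) in limonin libraries, against 3.37, 4.74, 3.12, 2.43 and 3.38 FPKM in MCD libraries. The groups did not overlap, and Hspg2 fell by 0.73 ± 0.13 (adjusted p = 0.00258, limma). Versican, Vcan, the other large proteoglycan, was below the filter at 0.0205 FPKM in limonin livers and 0.0514 FPKM in MCD livers.

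Laminins are trimers of an alpha, a beta and a gamma chain, and nidogens join them to collagen IV. Of 8 laminin and nidogen genes 4 were tested, 3 were called lower and 1 was not called. Lamb2 (ENSMUSG00000052911, chr9:108479736-108490530), a beta chain, had 1.14, 1.55 and 1.84 FPKM (lowest, median and highest of 6) in limonin libraries, against 4.29, 4.88, 3.94, 2.17 and 3.47 FPKM in MCD libraries. No library overlapped, and the fold change was -0.87 ± 0.14 (adjusted p = 0.00201, limma). Lama5 (ENSMUSG00000015647, chr2:180176373-180225859), an alpha chain, had 0.820, 1.29 and 1.68 FPKM in limonin libraries and 4.64, 3.86, 2.66, 1.57 and 2.77 FPKM in MCD libraries. Limonin 1 was above MCD 4, and the fold change of Lama5 was -0.83 ± 0.17 (adjusted p = 0.00548). Lamc1, the widely used gamma chain, averaged 2.49 ± 0.417 FPKM in limonin livers and 3.61 ± 0.838 FPKM in MCD livers, with overlap. Its call (-0.39 ± 0.13, adjusted p = 0.0410) was the weakest of the 20 and was lost when limonin 1, 2, 4, 5 or 6 or MCD 1, 2 or 5 was left out, with adjusted p up to 0.113.

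Nid1 averaged 3.82 ± 1.48 FPKM in limonin livers and 4.48 ± 1.13 FPKM in MCD livers and was not called, at -0.21 ± 0.20 with a 95% confidence interval of -0.64 to 0.22 (adjusted p = 0.457, limma). Limonin 3, at 6.39 FPKM, was the highest of all 11 libraries. Below the filter, Lama4, an alpha chain of vessels and mesenchyme, averaged 0.248 ± 0.0560 FPKM in limonin livers and 0.557 ± 0.111 FPKM in MCD livers without overlap. Lama2 averaged 0.144 FPKM in limonin livers and 0.360 FPKM in MCD livers, Lamb1 0.852 FPKM in limonin livers and 1.09 FPKM in MCD livers and Nid2 0.475 FPKM in limonin livers and 0.504 FPKM in MCD livers, each with overlap. Summed over the 8 genes, levels were 8.09 to 14.6 FPKM in limonin libraries and 10.7 to 21.96 FPKM in MCD libraries, with overlap.

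The 5 genes that modify or fold collagen chains split. Serpinh1 (ENSMUSG00000070436, chr7:99345376-99353239), the collagen chaperone HSP47, had 6.28, 4.95, 8.81, 5.63, 6.76 and 6.41 FPKM in limonin libraries 1 to 6, against 29.7, 28.9, 17.3, 11.1 and 25.2 FPKM in MCD libraries 1 to 5. All 6 limonin libraries were below all 5 MCD libraries. Serpinh1 fell by 1.59 ± 0.22 on the log2 scale (adjusted p = 0.00136, limma), with means of 6.47 ± 1.31 FPKM in limonin livers and 22.4 ± 8.02 FPKM in MCD livers (SD). P3h3 (ENSMUSG00000023191, chr6:124841089-124857752), a prolyl 3-hydroxylase family member that forms a complex with P3h4 and Plod1, had 0.912, 1.07 and 1.3 FPKM (lowest, median and highest of 6) in limonin libraries, against 2.90, 3.51, 2.99, 1.98 and 2.99 FPKM in MCD libraries. It separated likewise and fell by 0.87 ± 0.11 (adjusted p = 0.00120).

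P3h1 and Plod1 were not called. P3h1, the prolyl 3-hydroxylase of fibrillar collagen chains, averaged 7.80 ± 1.22 FPKM in limonin livers and 8.93 ± 1.11 FPKM in MCD livers, with a fold change of -0.18 ± 0.11 and a 95% confidence interval of -0.42 to 0.06 (adjusted p = 0.260, limma). Plod1, a lysyl hydroxylase, averaged 13.3 ± 2.53 FPKM in limonin livers and 12.5 ± 1.77 FPKM in MCD livers, with a fold change of 0.07 ± 0.12 and an interval of -0.20 to 0.34 (adjusted p = 0.712). The interval of P3h1 leaves out a fall as large as that of P3h3. Plod2, the lysyl hydroxylase of collagen telopeptides, was below the filter at 0.142 FPKM in limonin livers and 0.280 FPKM in MCD livers.

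Related genes within the set were set against each other in each library, in 6 pairs. The ratios are of FPKM without the added 1, so their differences are not on the scale of the fold changes above. The pairs were chosen after their values were seen, so the ratios are a description and no p-value is given. The log2 ratio of P3h3 to P3h1 averaged -2.82 ± 0.34 in limonin livers and -1.65 ± 0.26 in MCD livers (SD, n = 6 and 5), a difference of -1.17. That of Efemp2 to Efemp1 averaged -1.49 ± 0.35 in limonin livers and -0.71 ± 0.24 in MCD livers, a difference of -0.78. Bgn to Dcn averaged -0.96 ± 0.33 in limonin livers and -0.31 ± 0.16 in MCD livers, a difference of -0.65. The differences were -0.71 for Sparc to Sparcl1, -0.44 for Fmod to Prelp and -0.30 for Lum to Fmod.

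The MCD livers were not alike. MCD 4 was the lowest MCD library in 19 of the 26 tested genes (73.1%), whereas it was lowest in 25.1% of all genes tested, and it was lowest in 18 of the 20 genes called lower. MCD 2 was the highest MCD library in 13 of the 26 (50.0%), against 27.3% of all genes. Limonin 3 was the highest limonin library in 11 of the 26 (42.3%), against 32.97% of all genes, and limonin 2 the lowest in 11. The median deviation of the 26 from their means was -0.04 in MCD 4, on log2(FPKM + 1), and 0.33 to 0.74 in the other MCD libraries, against -0.50 to -0.26 in limonin libraries. Of the 20 genes called lower, 7 had overlapping groups, and 4 of these, Eln, Sparcl1, Lum and Lama5, separated once MCD 4 was set aside. Efemp1, Dcn and Lamc1 overlapped still. Setting aside the library that was lowest in most of these genes favours separation, and the share over all genes without MCD 4 is not given. Without MCD 4 the counts were 20 lower and 1 higher, and without MCD 2 they were 16 lower and 1 higher.

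**Figure D3:**
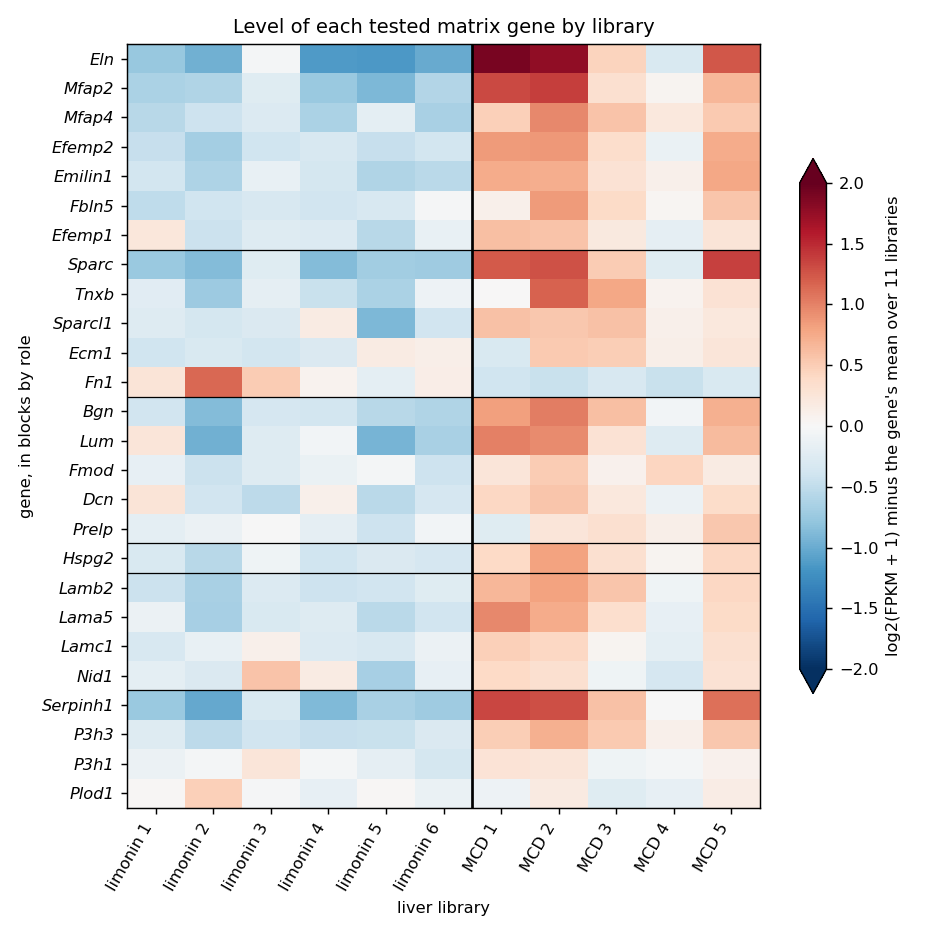
Deviation of log2(FPKM + 1) from the gene's mean over 11 libraries, for the 26 tested genes (in blocks by role) and the 11 libraries, limonin left of the black line and MCD right of it; red is above and blue below the mean. MCD 4 is paler than the other MCD libraries (median deviation -0.04 against 0.33 to 0.74), and Fn1 is above its mean in most limonin libraries.

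The other genes of these pathways, taken from lists, were measured beside the set, and their counts stand against 18.7% lower and 7.24% higher of all genes tested. The filter bears on these counts too, since passing through the MCD libraries alone favours genes lower in limonin livers. P3h4, Adamts2, Lamc3 and Chsy1, for example, averaged under 1 FPKM in limonin livers and over 1 FPKM in MCD livers. Counts of these lists with no filter are not given. Of 14 further elastic fibre genes 7 were tested, and 4 were called lower, 0 higher and 3 not called, with a median fold change of -0.82. Adamtsl2, which binds fibrillin and latent TGF-beta binding proteins, averaged 1.61 ± 0.449 FPKM in limonin livers and 7.45 ± 3.14 FPKM in MCD livers (fold change -1.61 ± 0.24, adjusted p = 0.00165, limma). Loxl1, a lysyl oxidase of elastin, averaged 1.10 ± 0.365 FPKM in limonin livers and 4.76 ± 2.11 FPKM in MCD livers (-1.38 ± 0.24, adjusted p = 0.00277). Ltbp4, which organises elastin and fibulin assembly, fell by 0.82 ± 0.16, and the protease Adamts10 by 0.90 ± 0.17. Of the 3 not called, Mmrn2, Mfap3 and Mfap1a had fold changes of -0.02, -0.01 and 0.02. Despite its name, Mfap1a encodes a splicing protein, and Mmrn2 is an endothelial relative of Emilin1. The count and median of this list include both, so their values say little about elastic fibres.

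Of 19 further collagen-modifying genes 12 were tested, with 6 lower, 0 higher and 6 not called. The chaperone Fkbp10 (-1.10 ± 0.16, adjusted p = 0.00135, limma), P3h4 (-0.58 ± 0.09, adjusted p = 0.00174), the procollagen C-proteinase enhancer Pcolce (-1.07 ± 0.19, adjusted p = 0.00270) and the N-proteinase Adamts2 (-0.74 ± 0.15, adjusted p = 0.00487) had the smallest p. Among the 6 not called were abundant enzymes that also serve other secreted proteins. P4hb averaged 935 ± 92.8 FPKM in limonin livers and 899.5 ± 106 FPKM in MCD livers, and Ppib 80.4 ± 9.36 FPKM in limonin livers and 91.4 ± 3.91 FPKM in MCD livers. The rest of the 6 were Plod3, Colgalt1, Fkbp14 and Bmp1, with fold changes of -0.21, -0.03, -0.004 and 0.01, so the genes not called were not only such general enzymes. The median fold change of the 12 was -0.31.

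Of 25 further basement membrane genes 11 were tested, with 5 lower, 0 higher and 6 not called, and a median of -0.29. Agrn (agrin, a heparan sulfate proteoglycan) fell by 0.92 ± 0.16 (adjusted p = 0.00274, limma) and the laminin gamma chain Lamc3 by 0.69 ± 0.16 (adjusted p = 0.00904). The collagen IV chains Col4a1 and Col4a2 fell by 0.89 ± 0.22 (adjusted p = 0.0116) and 0.77 ± 0.21 (adjusted p = 0.0193). Without MCD 2 the count of lower genes in this list was 3, and Col4a2 was not called. Col18a1, at 88.9 ± 13.2 FPKM in limonin livers and 71.8 ± 7.01 FPKM in MCD livers, was not called (0.30 ± 0.11, adjusted p = 0.0636).

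Of 21 further matricellular gene names, 16 were in the table. Among those not found, Cyr61, Ctgf and Nov are older names of Ccn1, Ccn2 and Ccn3, which were found, whereas Matn1 and Matn3 were absent. Of the 16, 8 were tested, with 4 lower, 0 higher and 4 not called, and a median of -0.56. Tgfbi, a collagen- and integrin-binding protein, averaged 22.6 ± 2.88 FPKM in limonin livers and 43.7 ± 7.34 FPKM in MCD livers (-0.91 ± 0.13, adjusted p = 0.00120, limma). Ccn2 and Ccn1, matricellular integrin ligands, had fold changes of -1.18 ± 0.23 (adjusted p = 0.00497) and -1.08 ± 0.28 (adjusted p = 0.0162). Spp1 (osteopontin), which bile duct cells and macrophages also express, averaged 34.8 ± 15.7 FPKM in limonin livers and 152 ± 116 FPKM in MCD livers (-1.92 ± 0.45, adjusted p = 0.0134).

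Of 29 listed proteoglycans and glycosaminoglycan enzymes, 27 were in the table and 7 were tested. Srgn (serglycin, the proteoglycan of blood cell granules) was called lower at -0.60 ± 0.13 (adjusted p = 0.00615, limma), and the chondroitin synthase Chsy1 at -0.36 ± 0.11 (adjusted p = 0.0277). The call of Chsy1 was lost without limonin 2, MCD 1, MCD 2 or MCD 3. Ugdh, Podn, Ext1, Xylt2 and Ext2 were not called, with fold changes of 0.41, -0.27, 0.15, -0.11 and -0.02, and the median of the 7 was -0.11. Ugdh, which makes UDP-glucuronate, was called higher without limonin 5 or MCD 1.

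Among 26 matrix receptors 18 were tested, with 7 lower, 2 higher and 9 not called, and a median of -0.18, where 18.7% of all genes tested were lower and 7.24% higher. Cd44, the hyaluronan receptor, averaged 1.15 ± 0.384 FPKM in limonin livers and 3.14 ± 1.20 FPKM in MCD livers (-0.91 ± 0.19, adjusted p = 0.00516, limma). Itga9, an integrin chain that binds tenascin-C and osteopontin, fell by 0.48 ± 0.10 (adjusted p = 0.00675), and the collagen receptor Ddr1 by 1.24 ± 0.26 (adjusted p = 0.00704). The syndecan Sdc2, a heparan sulfate proteoglycan of the cell surface, was called higher, at 40.4 ± 6.24 FPKM in limonin livers and 27.7 ± 3.05 FPKM in MCD livers (0.52 ± 0.12, adjusted p = 0.00695). Cd36, a receptor of thrombospondins and fatty acids, was also called higher (0.66 ± 0.22, adjusted p = 0.0458). The count of higher receptors was 1 when limonin 1, 2, 3 or 4 or MCD 1, 2, 3 or 4 was left out. Itgb1, the beta chain shared by most fibronectin, laminin and collagen receptors, was not called (-0.12 ± 0.11).

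**Figure D4:**
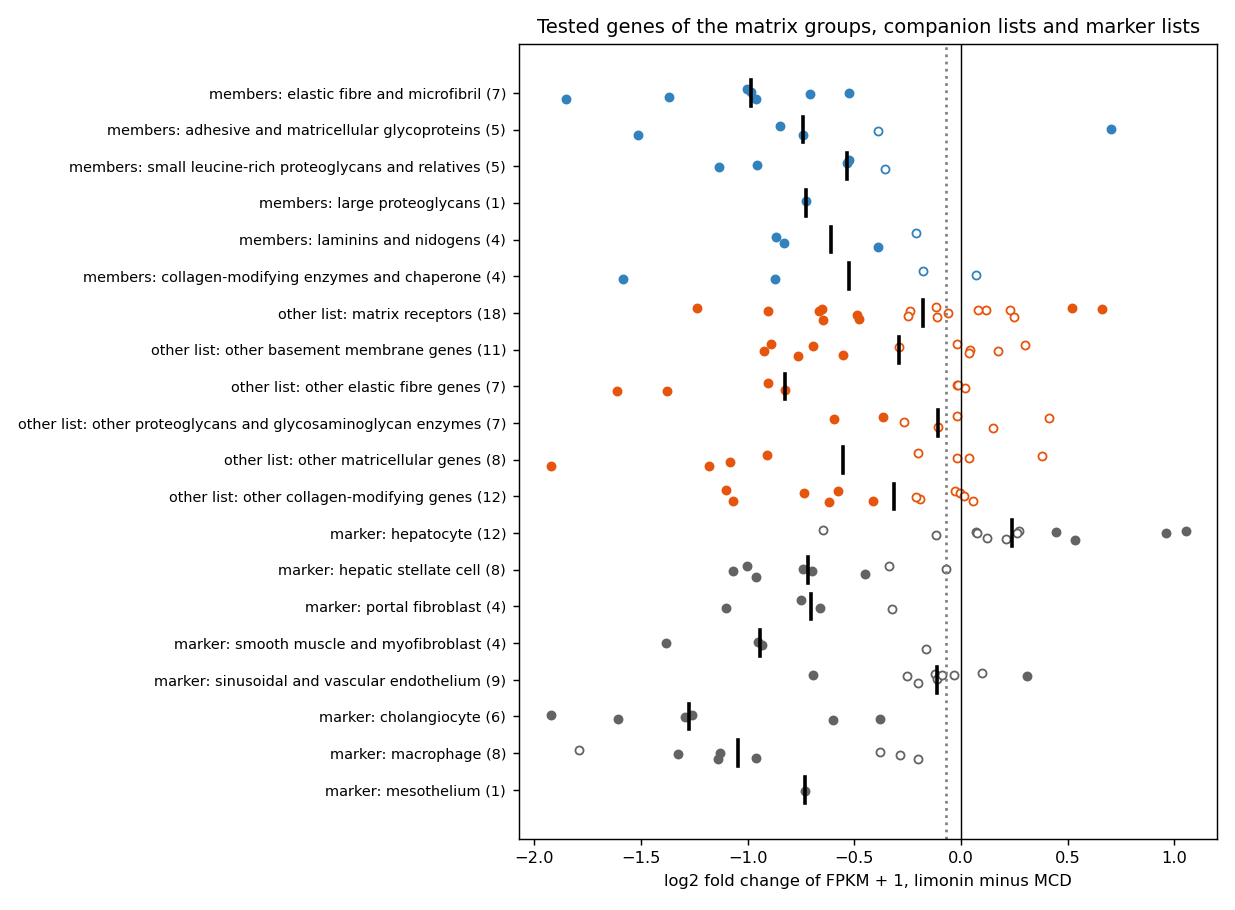
Log2 fold change of FPKM + 1, limonin minus MCD, for each tested gene of the role groups (blue), the further matrix lists (orange) and the cell type markers (grey), with the number of tested genes in brackets. Filled points have an adjusted p under 0.05 in limma, black bars are medians and the dotted line is the median of all genes tested; the medians run from -0.99 (elastic fibre members) to -0.52 (collagen-modifying members) in blue and from -1.28 (cholangiocyte) to 0.24 (hepatocyte) in grey.

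Markers of stellate cells, portal fibroblasts and myofibroblasts were also lower in limonin livers. Their counts stand against 18.7% lower and 7.24% higher of all genes tested. The filter bears on all marker counts, here and below, and favours markers lower in limonin livers. Thy1, a portal fibroblast marker called lower, averaged 0.926 FPKM in limonin livers and 2.04 FPKM in MCD livers. Marker counts with no filter are not given. Of 10 stellate cell markers, leaving out Dcn and Ecm1, 8 were tested and 6 were called lower, including Cygb (-1.07), Des (-0.74) and Pdgfrb (-0.96), and their summed level was 37.9 to 49.4 FPKM in limonin libraries and 60.4 to 96.0 FPKM in MCD libraries. Lrat, of vitamin A storage, and Reln were not called, with fold changes of -0.34 and -0.07. Of 9 portal fibroblast markers 4 were tested and 3 called lower, with sums of 8.56 to 13.3 FPKM in limonin libraries and 15.0 to 23.3 FPKM in MCD libraries. Of 6 smooth muscle and myofibroblast markers 4 were tested and 3 called lower, Tagln (-1.38), Myl9 (-0.95) and Acta2 (-0.94), with sums of 10.7 to 28.5 FPKM in limonin libraries and 33.5 to 54.4 FPKM in MCD libraries. None of these 3 sums overlapped between the groups, and their part in the lower matrix genes was not tested.

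Markers of other cell types differed in how many were called, where 18.7% of all genes tested were lower and 7.24% higher. Of 8 cholangiocyte markers 6 were tested and all 6 of those were called lower (4 to 6 when a library was left out), with sums of 27.5 to 87.5 FPKM in limonin libraries and 75.3 to 409 FPKM in MCD libraries. Spp1 is in this list and in the matricellular one. It averaged 34.8 FPKM in limonin livers and 152 FPKM in MCD livers and makes up most of these sums. Of 10 macrophage markers 8 were tested and 4 called lower, 2 without MCD 2, with sums of 83.9 to 129 FPKM in limonin libraries and 119 to 380.4 FPKM in MCD libraries. Of 10 endothelial markers 9 were tested, with Stab1 lower (-0.69), Kdr higher (0.31) and 7 not called. The Kdr call was lost without limonin 1, 2, 3, 4 or 6 or MCD 1, 2 or 5, and the endothelial sums overlapped, at 27.3 to 41.6 FPKM in limonin libraries and 26.5 to 46.9 FPKM in MCD libraries. Of the 12 hepatocyte markers 4 were called higher, Cps1, Fgb, Alb and Hnf4a, and 2 when limonin 4, MCD 1 or MCD 2 was left out; the other 8 were not called, though 1 was called lower without limonin 4 or limonin 5, and the sums overlapped. Of 5 mesothelial markers 1 was tested, Gpm6a, and it was called lower (-0.73). No marker of these lists was at 0 in every library of a group. The part of these cell types in the matrix genes was not tested.

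Exons of 16 of the 45 genes share bases with a gene on the opposite strand, among them Fn1, Eln, Efemp2, Mfap4 and Tnxb. The library preparation marks the strand, but the sources used here do not say whether quantification used it, so reads of such overlapping genes may not be told apart.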

How the data were processed

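Liver poly(A) RNA of 6 limonin and 5 MCD mice was sequenced. Tools named in the submitters' processing notes are HISAT2 2.0.4, cutadapt 1.9 and StringTie 1.3.4d; the notes name GRCh38, a human build, whereas the gene identifiers are of mouse. Per the file headers, the deposited values are FPKM of every gene in every library. The authors also deposited, per the file headers, a ratio (fold) of the group means, the log2 of that ratio, a p-value and a q-value, from a test that the sources used here do not name. FPKM hold no counts, so no count model was fitted and no counting interval is given. The depth implied by the smallest steps of FPKM was 15518347 to 19727686 fragments.

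FPKM were taken as log2(FPKM + 1), which understates the change of low genes, and filtered at 1 FPKM in at least 5 libraries. The group comparison used limma 3.58.1 (R 4.3.3) with trended, robust moderation, two-sided, and p-values were adjusted by Benjamini-Hochberg over the 10489 genes tested, with a threshold of 0.05. The code was tested on simulated data. The labels give replicate numbers and do not say how cages or days were shared, so p-values measure the spread between these libraries. The 45 genes, the lists of further genes and the markers were chosen with earlier results of these data known. For up to 15 called genes of largest fold change, genes with a mean of at least 20 FPKM and a gene called against the common direction, the MCD values are given for each library and the limonin values for each library or as lowest, median and highest; of each further list, up to 4 genes of smallest p, and others named were chosen after their values were seen. Alternatives changed the filter, the pseudocount, the scaling, the variance model, the replicate block and the libraries left out. Coordinates are from GENCODE M21 (GRCm38) and promoters from RefSeq (GRCm38.p6).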

Additional observations from a re-analysis of the deposited data

Results flagged for a closer look

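In 6 of 90 gene and group combinations tested, 1 library stood apart from the others of its group by more than Dixon's test allows at the 95% level; chance marks about 1 in 20 such groups. Within limonin livers, Sparc was 20.9 FPKM in limonin 3, against 13.2 to 15.0 FPKM in the other limonin libraries. Eln was 2.59 FPKM in limonin 3, against 0.670 to 1.20 FPKM in the others. Fbln5 was 2.45 FPKM in limonin 6, against 1.46 to 1.81 FPKM, and Plod1 was 18.2 FPKM in limonin 2, against 11.3 to 13.0 FPKM. Within MCD livers, Fbln2 was 1.49 FPKM in MCD 2, against 0.980 to 1.11 FPKM in the other MCD libraries, and Thbs2 was 0.478 FPKM in MCD 4, against 0.915 to 1.02 FPKM. Sparc, Eln and Fbln5 were called lower with and without these libraries.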

How the results depend on the processing

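Of the 20 genes called lower, 16 were called in every limma fit that tested them; Efemp1, Lum, Dcn and Lamc1 lost the call in some. With 5 FPKM as the filter, 13 of the matrix genes were tested and 9 were called lower, since fewer genes were tested. Fn1 was the gene called higher, and the count was 0 with no filter and 0 without MCD 4 and 5. With no filter its fold change was the same, at 0.70. Only the SE (0.198, against 0.185 in the main comparison) and the adjustment, over 31280 genes, differed. Without MCD 4 and 5 the fold change was 0.71, and the cause of that lost call was not tested. Over all genes, 2716 were changed, against 1424 with 5 FPKM as the filter, 1256 with the replicate block, 5010 by the authors' deposited q, and 1408 (without MCD 2) to 3062 (without limonin 5) when a library was left out. With no filter 2190 were changed, 1778 lower and 412 higher.

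Scaling moved the balance of calls over all genes: 27.9% of calls were higher in the main comparison, 42.2% with median-ratio scaling, 49.6% with equal summed FPKM and 52.9% with quantile normalization, and 46.5% without limonin 5 and 6. The matrix genes called lower then numbered 20, 17, 19 and 17, in that order of settings after the main 20, and 24 of the 26 had a negative fold change under each scaling. With the replicate block 17 were called lower and 1 higher; Lum, Dcn and Lamc1 were lost, and, among the 4 genes of smallest p in each further matrix list, Col4a1, Col4a2, Spp1, Ccn1 and Chsy1. Same-numbered libraries did not as a rule deviate together (correlations of 0.08, -0.24, -0.17, 0.20 and -0.17, and 1 of 5 matched best with its own number). That check showed no pairing by number, but it cannot exclude cages or days shared by number. Limonin 6 has no partner in the fit with the replicate block. FPKM carry no counting error, so the depth behind genes below 1 FPKM limits what can be said of them.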
